A study of Mus musculus with 24 samples.

Results

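Integrins are the receptors by which cells hold on to matrix and to other cells. Each is a pair of 1 alpha and 1 beta chain, and its short inner tail is joined to actin by talins, kindlins, vinculin, paxillin and their kinases. Macrophages and osteoclasts gather these proteins in podosomes, small actin-rich contacts. An osteoclast arranges its podosomes in a ring that seals off the bone it resorbs, and the integrin made of alpha v and beta 3 is known there for binding bone matrix proteins such as osteopontin. The 36 genes described here were taken by symbol from the 54232 gene identifiers of the count tables, and each of the 36 was found. They are 17 alpha chains, 8 beta chains and 11 cytoplasmic proteins (Tln1, Tln2, Fermt2, Fermt3, Vcl, Pxn, Ptk2, Ptk2b, Ilk, Parvg and Gsn).

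The series measured RNA in a mouse model of cherubism, an inherited jaw disease. Marrow of female C57BL/6 mice, 6 to 8 weeks old, was cultured for 7 days in medium with 10% serum and then sorted. The 4 groups of 6 libraries were Sh3bp2KI/KI mesenchymal (CD45-Sca1+), wild type mesenchymal, Sh3bp2KI/KI hematopoietic (CD45+Sca1+) and wild type hematopoietic cells. SH3BP2 is an adaptor protein that links receptors to SRC and SYK, and which change in it the knock-in makes is not stated in the labels. They also do not say whether the 6 libraries of a group came from separate mice, so p-values measure the spread between these libraries only.

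Library totals ranged from 9875390 to 15826711 counts. Sh3bp2 averaged 7.59 CPM in knock-in and 7.42 CPM in wild type mesenchymal cells, and 232.8 ± 36.5 CPM in knock-in and 211.9 ± 25.6 CPM in wild type hematopoietic cells (SD, n = 6 each). CPM are counts brought to 1 scale by TMM. Ptprc, which encodes CD45, averaged 3.13 CPM in knock-in and 2.98 CPM in wild type mesenchymal cells, against 749 and 793 CPM in knock-in and wild type hematopoietic cells. Ly6a, which encodes Sca1, the marker of both sorts, was low throughout, at 11.1 and 9.99 CPM in knock-in and wild type mesenchymal cells and 10.6 and 12.1 CPM in knock-in and wild type hematopoietic cells. Both sorted populations carried some RNA of the other. By 18 and 20 stromal markers, stromal RNA made up an estimated 10.8% ± 5.98 of knock-in and 10.05% ± 4.91 of wild type hematopoietic libraries, with the highest share, 22.2% and 19.4%, in replicate 3 of each. By 25 leukocyte markers, leukocyte RNA made up 0.564% ± 0.288 of knock-in and 0.467% ± 0.173 of wild type mesenchymal libraries. These are bulk samples, in which fewer cells of a type and less RNA per cell cannot be told apart.

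The promoter windows of 4 genes are shown because these members rose by 0.7 or more on the log2 scale in knock-in hematopoietic cells, with values given further on. Itgb3 rose too, but had no window in the table used. Each line holds 250 bases before and 50 after the gene's start from RefSeq (GRCm38.p6), written 5′ to 3′ on the gene's own strand. Capitals mark matches, on either strand, to GGAAA, the core bound by NFAT factors, and to GAGGAAG, a purine-rich site of the kind bound by PU.1. The Itgav window lies at chr2:83724147-83724446 on the plus strand. The others lie on minus strands, that of Itga5 at chr15:103366742-103367041, that of Itga2 at chr13:114932051-114932350 and that of Itgb7 at chr15:102231886-102232185.
Itgav: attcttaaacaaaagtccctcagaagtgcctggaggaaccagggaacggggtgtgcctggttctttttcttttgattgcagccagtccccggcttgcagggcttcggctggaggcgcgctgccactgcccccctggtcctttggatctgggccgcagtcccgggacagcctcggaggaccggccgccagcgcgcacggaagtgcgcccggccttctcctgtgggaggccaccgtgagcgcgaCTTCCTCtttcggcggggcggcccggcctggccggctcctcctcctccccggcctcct
Itga5: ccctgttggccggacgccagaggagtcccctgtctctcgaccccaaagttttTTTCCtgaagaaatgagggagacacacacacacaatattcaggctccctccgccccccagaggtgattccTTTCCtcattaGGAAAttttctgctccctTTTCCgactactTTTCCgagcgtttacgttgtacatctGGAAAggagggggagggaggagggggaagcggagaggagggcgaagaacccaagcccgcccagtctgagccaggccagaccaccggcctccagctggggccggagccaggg
Itga2: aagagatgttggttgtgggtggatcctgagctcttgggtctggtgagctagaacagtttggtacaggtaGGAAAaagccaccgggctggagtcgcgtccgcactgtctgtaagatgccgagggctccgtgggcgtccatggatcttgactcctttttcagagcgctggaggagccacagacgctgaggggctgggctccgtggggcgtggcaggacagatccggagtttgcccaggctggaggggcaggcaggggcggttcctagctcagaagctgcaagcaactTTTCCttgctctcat
Itgb7: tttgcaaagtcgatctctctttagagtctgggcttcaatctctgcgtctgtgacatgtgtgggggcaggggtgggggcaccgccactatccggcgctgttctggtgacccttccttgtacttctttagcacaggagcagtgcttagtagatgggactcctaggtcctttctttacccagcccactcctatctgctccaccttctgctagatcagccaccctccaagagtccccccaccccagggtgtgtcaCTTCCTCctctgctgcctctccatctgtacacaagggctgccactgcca

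GGAAA was found at 6 places in the Itga5 window and 2 in the Itga2 window, and GAGGAAG at 1 place in each of the Itgav and Itgb7 windows. The matches shared no base with each other. TGANTCA, the site of AP-1 factors, was in none of the 4 windows. Over all 32851 windows of the table, 61.3% held GGAAA, 13.6% held GAGGAAG and 7.81% held TGANTCA. Of the 31 windows of the 25 members that have one, 13 held GGAAA, 8 held GAGGAAG and 3 held TGANTCA. A match is a description of the letters and says nothing about binding.

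Knock-in hematopoietic cells had more RNA for a small set of integrin chains than wild type hematopoietic cells. Of the 36 genes, 32 passed the filter on low counts, and the quasi-likelihood test of edgeR, adjusted over all genes by Benjamini-Hochberg at 0.05, called 8 higher and 2 lower. Of all 14030 tested genes 15.9% were called, 9.01% higher and 6.89% lower. The members, and the lists used below, were chosen with earlier results of these data known. Their counts beside the shares of all genes are therefore descriptions only. The beta chains Itgb2, Itgb3 and Itgb7 rose, as did the alpha chains Itga2, Itga5 and Itgav. The cytoplasmic genes Gsn and Pxn rose less, and the alpha chains Itga6 and Itga9 fell. The median log2 fold change of the 32 was 0.14, against -0.0048 for all tested genes. Knock-in and wild type libraries did not overlap for 7 of the 32, 6 higher and 1 lower, against 7.8% of all tested genes (4.61% higher, 3.19% lower).

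**Figure D1:**
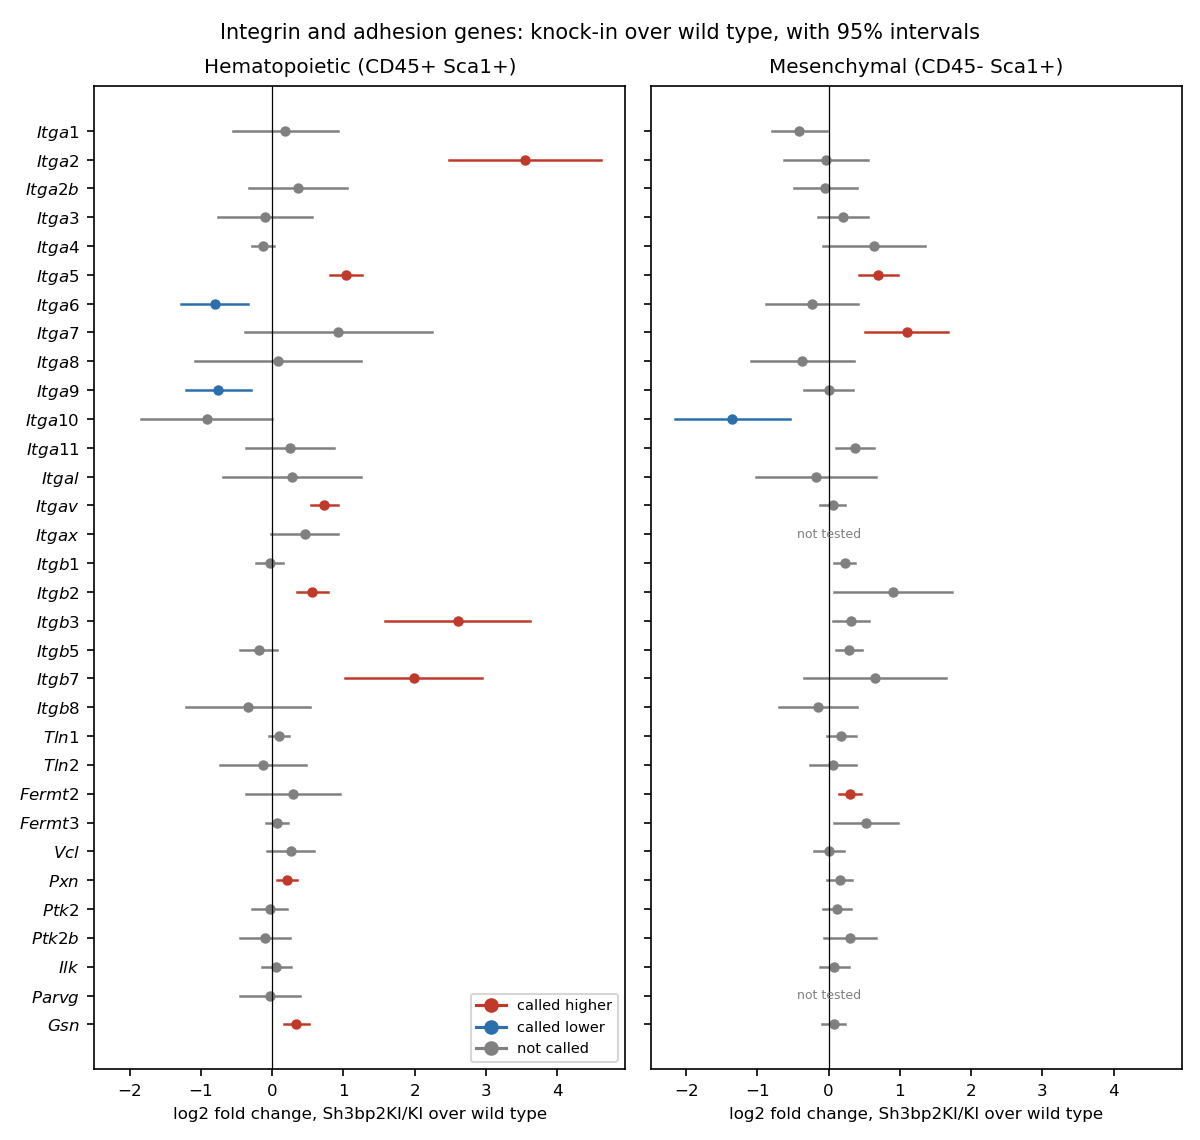
log2 fold change of each tested gene in knock-in over wild type cells, with its 95% interval, in hematopoietic cells (left panel) and mesenchymal cells (right panel). Itga2, Itgb3 and Itgb7 lie farthest to the right in hematopoietic cells, at 3.55, 2.60 and 1.99, and Itga5 is called higher in both panels.

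Itgb3 encodes beta 3, the partner of alpha v in osteoclasts and of alpha IIb in platelets. Its lowest, median and highest levels were 66.8, 129 and 181 CPM in knock-in hematopoietic libraries and 5.60, 19.5 and 39.6 CPM in wild type hematopoietic libraries. The lowest knock-in library stood above the highest wild type library. The log2 fold change was 2.60 ± 0.47 (SE, edgeR adjusted p = 0.00294). Runs 1 and 2 are the name used here for 2 sets of libraries marked by a prefix of the deposited files. The labels do not say what the prefix stands for. Within runs 1 and 2 the log2 fold change of Itgb3 was 2.34 and 2.88, and the edgeR adjusted p was 0.0763 and 0.0894.

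Itgav encodes alpha v, which pairs with several beta chains. Itgav ranged from 949 to 1143 CPM (median 1036) in knock-in and from 548 to 697 CPM (median 637) in wild type hematopoietic libraries, without overlap. Its log2 fold change was 0.73 ± 0.09 (SE, edgeR adjusted p = 1.66e-04), and 0.79 and 0.68 within the runs. The call was lost in run 2 alone, at an adjusted p of 0.0643. Itgb5, whose protein is another of the alpha v partners, was not called. Its log2 fold change was -0.19, with a 95% interval of -0.45 to 0.07.

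Beta 3 took a larger share of the RNA of these 2 partners. Per kilobase of exon, Itgb3 was 15% ± 5.39 of the sum of Itgb3 and Itgb5 in knock-in hematopoietic libraries, with a range of 7.29% to 21%. In wild type hematopoietic libraries it was 2.50% ± 1.76, with a range of 0.61% to 5.30% (SD, n = 6 each). The ranges did not overlap. Mesenchymal libraries had 8.11% ± 1.64 in knock-in and 7.86% ± 1.55 in wild type, and those ranges did.

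**Figure D2:**
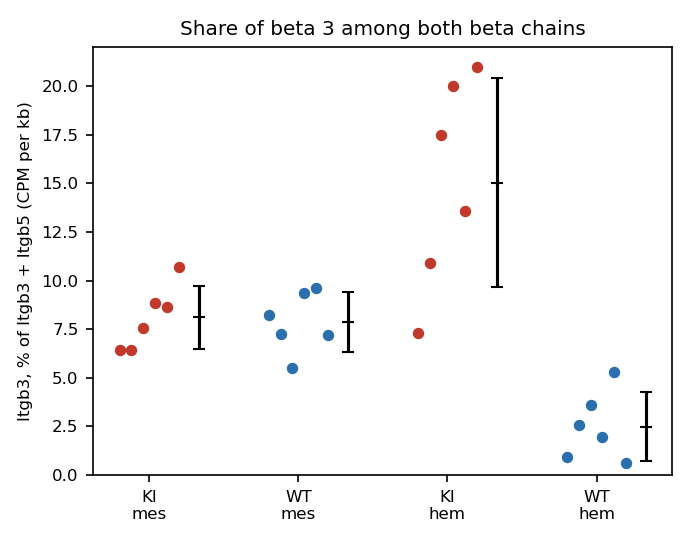
Share of Itgb3 in the sum of Itgb3 and Itgb5, as a percentage of CPM per kilobase, for each library of the 4 groups (points) with the mean and SD beside them. Knock-in hematopoietic libraries lie between 7.29% and 21%, and wild type hematopoietic libraries between 0.61% and 5.30%.

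Most osteoclast markers were also higher in knock-in hematopoietic cells. Of 11 osteoclast markers, none of them an integrin, edgeR called 9 higher and 0 lower in knock-in hematopoietic cells, against 9.01% and 6.89% of all genes, with a median log2 fold change of 2.64. Tnfrsf11a, the RANK receptor, was among those not called. Their summed level was 2762 to 6075 CPM in knock-in and 828.9 to 2452 CPM in wild type hematopoietic libraries. None of the 11 was at 0 in all libraries of a group. In knock-in cells the library with the lowest Itgb3 level also had the lowest marker sum, 2762 CPM. In wild type cells the library with the highest Itgb3 level had the highest sum, 2452 CPM. The other ends did not match, since the highest knock-in sum, 6075 CPM, and the lowest wild type sum, 828.9 CPM, were in other libraries than the highest and the lowest Itgb3 level. Itgb3 was at 180.4 CPM in the library with the highest knock-in sum, against a highest level of 180.8 CPM. It was at 8.03 CPM in the library with the lowest wild type sum, against a lowest level of 5.60 CPM. Of 15 macrophage markers 1 rose and 7 fell, against the same shares of all genes, while their summed level was 17300 to 25300 CPM in knock-in and 14100 to 22000 CPM in wild type cells. The part of osteoclast content in the integrin values was not tested.

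Itga5 encodes alpha 5, which with beta 1 forms the main fibronectin receptor. It ran from 226 to 355 CPM (median 309) in knock-in hematopoietic libraries and from 129 to 166 CPM (median 147) in wild type hematopoietic libraries, without overlap. The fitted log2 fold change was 1.03 ± 0.10 (SE, edgeR adjusted p = 5.85e-05). Each run alone gave a call, with log2 fold changes of 1.23 and 0.85. Itgb1, which encodes its partner beta 1, was not called, with a log2 fold change of -0.04 and a 95% interval of -0.22 to 0.15.

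Itga2 encodes alpha 2, a collagen receptor chain that also pairs with beta 1. Its counts were low in wild type, with 10 to 48 counts per library, and 66 to 517 in knock-in hematopoietic libraries. Levels were 5.70, 25.3 and 34.2 CPM (lowest, median, highest) in knock-in and 0.747, 1.79 and 3.42 CPM in wild type hematopoietic libraries. All 6 knock-in libraries lay above all 6 wild type libraries. At 3.55 ± 0.49 (SE, edgeR adjusted p = 6.04e-04) it had the largest log2 fold change of the 32 genes. Within the runs it was 3.12 and 3.995, and the adjusted p was 0.0526 in run 1 alone.

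Itgb7 encodes beta 7, the partner of alpha 4 and alpha E on lymphocytes. It ranged from 15.8 to 23.9 CPM (median 20.7) in knock-in and from 1.05 to 11.2 CPM (median 4.43) in wild type hematopoietic libraries, without overlap. Knock-in over wild type, the log2 fold change was 1.99 ± 0.44 (SE, edgeR adjusted p = 0.00984), and 1.98 and 2.005 within the runs, with an adjusted p of 0.252 in run 2. Its partner gene Itga4 was not called, at -0.13 with a 95% interval of -0.28 to 0.02. Its other partner gene Itgae was too low to be tested, with 1.06 CPM in knock-in and 0.299 CPM in wild type hematopoietic cells. T and NK cell markers were also too low for any to be tested in these cells. Of 8 B cell markers 6 were tested, 0 rose and 1 fell, against 9.01% and 6.89% of all genes, and the median log2 fold change was -1.69. Their summed level was 30.8 to 87.8 CPM in knock-in and 28.2 to 222 CPM in wild type hematopoietic libraries, and their part in the value of Itgb7 was not tested.

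Itgb2 encodes beta 2, the beta chain shared by the leukocyte integrins. Its levels were 460 to 684 CPM (median 514) in knock-in and 329 to 395 CPM (median 361) in wild type hematopoietic libraries, without overlap. On the log2 scale the fold change was 0.56 ± 0.10 (SE, edgeR adjusted p = 0.00256), and 0.60 and 0.54 within the runs. The call was lost in run 2 alone, at an adjusted p of 0.179. Its partners Itgal and Itgax were not called, with log2 fold changes of 0.28 (95% interval -0.69 to 1.25) and 0.46 (-0.01 to 0.93). Another partner gene, Itgam, which encodes CD11b, had 0 counts in all 24 libraries. Of its 5024 exon bases, 3450 are shared on the same strand with the annotated gene Gm49368, which held 245 counts over all libraries. Counts are given per gene, so reads on the unshared bases are not shown separately. The part of the overlap was not tested, and no level of Itgam is read from these tables.

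Itga6 encodes alpha 6, a laminin receptor chain. Its lowest, median and highest levels were 170.2, 434 and 564 CPM in knock-in and 617, 699.5 and 775 CPM in wild type hematopoietic libraries. No knock-in library reached the lowest wild type library. EdgeR gave a log2 fold change of -0.81 ± 0.22 (SE, edgeR adjusted p = 0.0241), and -0.80 and -0.79 within the runs, with an adjusted p of 0.378 in run 2. Leaving out wild type replicate 1, 2 or 4 or knock-in replicate 2 ended the call, with an adjusted p of at most 0.0578.

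Itga9 encodes alpha 9, which binds tenascin C and osteopontin. It ranged from 71.2 to 135 CPM (median 99.2) in knock-in and from 94.8 to 233 CPM (median 195) in wild type hematopoietic libraries, and the groups overlapped. The log2 fold change was -0.76 ± 0.21 (SE, edgeR adjusted p = 0.0281), and -0.99 and -0.51 within the runs, with an adjusted p of 0.461 in run 2. The call was lost without any 1 of wild type replicates 1, 3 and 6 and knock-in replicates 2, 3, 4 and 5, with an adjusted p of at most 0.0777.

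Among the cytoplasmic genes Gsn had the largest rise. Gelsolin, its product, cuts and caps actin filaments and is found in osteoclast podosomes. Gsn ranged from 354 to 454 CPM (median 427) in knock-in and from 270.1 to 364 CPM (median 347) in wild type hematopoietic libraries. The fitted log2 fold change was 0.34 ± 0.08 (SE, edgeR adjusted p = 0.0124), and 0.31 and 0.38 within the runs, with an adjusted p of 0.141 and 0.239. Pxn, for the adaptor paxillin, ranged from 153 to 177 CPM (median 161) in knock-in and from 132 to 156 CPM (median 142.5) in wild type hematopoietic libraries. Both genes' groups overlapped. Pxn had a log2 fold change of 0.21 ± 0.06 (SE, edgeR adjusted p = 0.0364), with 0.18 and 0.25 within the runs, at an adjusted p of 0.351 and 0.279. Its call was lost without any 1 of wild type replicates 1, 3, 4 and 5 and knock-in replicates 2, 3 and 4, with an adjusted p of at most 0.0733.

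The other 9 cytoplasmic genes were not called in hematopoietic cells, and for several the intervals were narrow. Talin 1, encoded by Tln1, switches integrins on, and its log2 fold change was 0.09 (95% interval -0.05 to 0.23). Fermt3, for the blood cell kindlin that works with talin, had 0.07 (-0.08 to 0.23). Ptk2 and Ptk2b, for the kinases FAK and PYK2, had -0.03 (-0.28 to 0.22) and -0.10 (-0.45 to 0.25). Vcl, for vinculin, had 0.26 (-0.07 to 0.59), and Ilk, for integrin-linked kinase, had 0.06 (-0.15 to 0.27). Parvg, for the blood cell parvin, had -0.04 (-0.46 to 0.39), Fermt2 had 0.30 (-0.36 to 0.96) and Tln2 had -0.13 (-0.74 to 0.48). Exons of Ilk, Vcl, Tln1 and Fermt3, and of the alpha chain genes Itgav and Itga4, overlap genes on the other strand, by 2106 bases with Taf10 in the case of Ilk, and the strand setting of the counting is not given in the sources used here.

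Alpha chains not called in hematopoietic cells were, beside those named, Itga1 (0.19), Itga2b (0.36), Itga3 (-0.10), Itga7 (0.93), Itga8 (0.08), Itga10 (-0.92) and Itga11 (0.25), with log2 fold changes in brackets. The interval was wide for Itga7, -0.39 to 2.24, and for Itga10, -1.84 to 0.00. Itga2b, for the platelet chain alpha IIb, averaged 2.21 ± 0.697 CPM in knock-in and 1.77 ± 1.12 CPM in wild type cells (SD, n = 6 each). Of the platelet markers, 5 of 12 were tested, 1 rose and 1 fell, against 9.01% and 6.89% of all genes. Itgb8, for the chain that activates TGF-beta with alpha v, had -0.34 (95% interval -1.22 to 0.54). Itgb4 and Itgb6 were too low to be tested in either population.

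Leaving out the 2 hematopoietic libraries with over 15% stromal RNA left 6 genes called higher and 0 lower, a check chosen after the data were seen. Itga2, Itga5, Itgav, Itgb2, Itgb3 and Itgb7 kept their calls, with log2 fold changes of 3.52, 1.02, 0.71, 0.58, 2.61 and 2.04. The falls of Itga6 and Itga9 were then -0.86 (adjusted p = 0.0559, edgeR) and -0.70 (adjusted p = 0.101). Gsn had 0.33 (adjusted p = 0.0514) and Pxn 0.19 (adjusted p = 0.122).

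**Figure D3:**
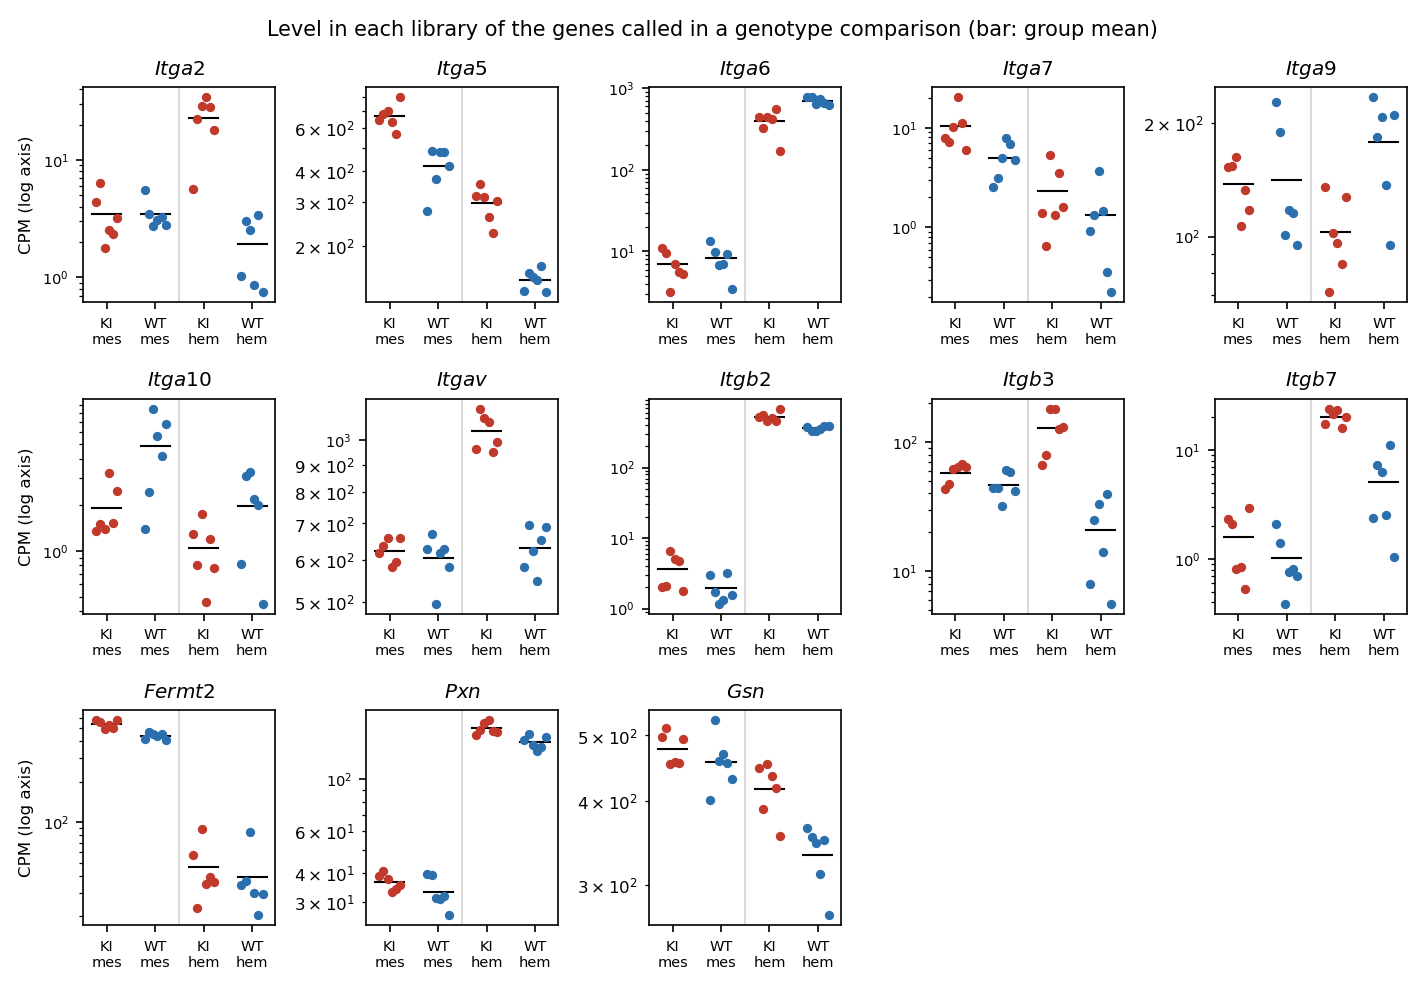
CPM on a log axis in each library of the 4 groups (mes, mesenchymal; hem, hematopoietic) for the 13 genes called in a genotype comparison, with a bar at the group mean. The knock-in hematopoietic points of Itga2, Itga5, Itgav, Itgb2, Itgb3 and Itgb7 all lie above the wild type points, and those of Itga6 all lie below.

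Fewer of the genes were called in mesenchymal cells. Of 30 tested genes 3 were called higher, Itga5, Itga7 and Fermt2, and 1 lower, Itga10, against 7.27% of all 13867 tested genes (3.44% higher, 3.83% lower). The median log2 fold change was 0.14, against 0.0011 for all genes. Groups did not overlap for 2 of the 30 genes, Itga5 and Fermt2, against 4.14% of all genes. Both were higher, which held for 2.06% of all genes. An unadjusted p under 0.05 was reached by 11 of the 30. The share of all genes reaching it is not given here. This count and the later counts of unadjusted p are therefore not read as a result about the members. Without wild type replicate 6 or knock-in replicate 1 the count of calls was 1, and without knock-in replicate 3 it was 2.

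Some osteoclast markers were also higher in knock-in mesenchymal libraries. Of the 11, 6 were tested and 3 rose, against 3.44% of all genes. These were Mmp9, Atp6v0d2 and Acp5, with log2 fold changes of 4.89, 3.92 and 3.595 (adjusted p at most 0.00641, edgeR). Ctsk (0.45), Tnfrsf11a (0.58) and Nfatc1 (-0.02) were not called. Mmp9, for a gelatinase, averaged 18.4 ± 9.53 CPM in the 6 knock-in and 0.624 ± 0.346 CPM (SD) in the 6 wild type mesenchymal libraries. Summed over the 11 markers the level was 207 to 433 CPM in knock-in and 174 to 343 CPM in wild type mesenchymal libraries, and these ranges overlapped. None of the 11 was at 0 in all libraries of a group, and their part in the member values was not tested.

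Itga5 was the 1 member called in both populations. In mesenchymal libraries it ranged from 567 to 799.6 CPM (median 665) in knock-in and from 276 to 482 CPM (median 451) in wild type, without overlap. Knock-in over wild type, the log2 fold change was 0.70 ± 0.13 (SE, edgeR adjusted p = 0.00588). It was called without any single library but not in either run alone, with log2 fold changes of 0.84 and 0.55 and an adjusted p of 0.0601 and 0.137. Fermt2 encodes kindlin 2, the kindlin of matrix-forming cells, and ranged from 492.5 to 574 CPM (median 542) in knock-in and from 411 to 466 CPM (median 442) in wild type mesenchymal libraries. Its log2 fold change was 0.30 ± 0.07 (SE, edgeR adjusted p = 0.0197), and 0.27 and 0.32 within the runs, neither of which called it. Without wild type replicate 6 or knock-in replicate 1 its call ended, with an adjusted p of at most 0.0581.

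Itga7 encodes alpha 7, a laminin receptor chain of muscle. Its levels were low, 5.99 to 20.2 CPM (median 9.09) in knock-in and 2.55 to 7.80 CPM (median 4.89) in wild type mesenchymal libraries, with overlap. On the log2 scale the fold change was 1.09 ± 0.27 (SE, edgeR adjusted p = 0.0268). Itga10, for a collagen receptor chain of cartilage, had 1.35 to 3.23 CPM (median 1.51) in knock-in and 1.38 to 8.57 CPM (median 4.97) in wild type mesenchymal libraries, also with overlap. Its log2 fold change was -1.35 ± 0.38 (SE, edgeR adjusted p = 0.0448). Within the runs the log2 fold changes were 1.24 and 0.96 (Itga7) and -1.54 and -1.19 (Itga10), none of them called. Both calls depended on single libraries. That of Itga7 was lost without any 1 of wild type replicates 1, 2 and 6 and knock-in replicates 1, 3 and 4 (adjusted p at most 0.0661). That of Itga10 was lost without any 1 of wild type replicates 3 to 6 and knock-in replicates 1, 2, 3, 5 and 6 (adjusted p at most 0.0992). Exons of Itga10 overlap those of Gm42957 on the same strand by 1739 bases, and Gm42957 had 0 counts.

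No beta chain was called by edgeR in mesenchymal cells, where 4 of 6 had an unadjusted p under 0.05. DESeq2 called Itgb1 and Itgb5 there, at adjusted p = 2.08e-05 and 0.0214. Itgb1 had a log2 fold change of 0.22 (95% interval 0.08 to 0.37, adjusted p = 0.0575, edgeR) and Itgb5 0.28 (0.10 to 0.47, adjusted p = 0.0623). Itgb3 had 0.32 (0.07 to 0.57, adjusted p = 0.119). Itga11, for a collagen receptor chain of fibroblasts, had 0.37 (0.10 to 0.64, adjusted p = 0.0903). These intervals lie above 0, while the adjustment over all genes left them uncalled. Itgb2 averaged 3.69 ± 2.01 CPM in knock-in and 1.98 ± 0.863 CPM in wild type (SD, n = 6 each). That was 0.697% and 0.545% of the hematopoietic mean of the same genotype, beside estimated leukocyte shares of 0.564% and 0.467%. Summed levels of 10 leukocyte markers were 75.3 to 110 CPM in knock-in and 53.2 to 76.1 CPM in wild type mesenchymal libraries. Much of that sum was Lsp1, at 62.7 ± 10.1 CPM in knock-in and 40.3 ± 5.73 CPM in wild type (SD). Ptprc averaged 3.13 CPM in knock-in and 2.98 CPM in wild type. Summed levels of 15 macrophage markers overlapped, at 36.8 to 148 CPM in knock-in and 46.7 to 124 CPM in wild type. The part of leukocyte RNA in the value of Itgb2 was not tested.

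The difference between the knock-in effects in the 2 populations was tested as an interaction, mesenchymal minus hematopoietic, over all 24 libraries. EdgeR called 0 of 32 genes higher and 3 lower, against 2.92% and 4.36% of 15389 tested genes (7.28% in both directions). Without any 1 of wild type hematopoietic replicates 3 and 5, wild type mesenchymal replicate 1 and knock-in mesenchymal replicates 1, 2 and 6 the counts were 1 and 4, and DESeq2 gave 3 and 4. Unadjusted p was under 0.05 for 9 genes. Itga2 differed by -3.60 ± 0.58 on the log2 scale (SE, adjusted p = 3.51e-04). Itgb3 differed by -2.27 ± 0.48 (adjusted p = 0.00389), and Itgav by -0.67 ± 0.11 (adjusted p = 5.84e-04). Within the runs the differences were -2.98 and -4.18 for Itga2, -1.95 and -2.60 for Itgb3 and -0.66 and -0.67 for Itgav, of which only that of Itga2 in run 2 was called. With all 24 libraries the rise of each was thus larger in hematopoietic than in mesenchymal cells. In the separate fit of the 12 mesenchymal libraries Itga2 had a log2 fold change of -0.03 (95% interval -0.62 to 0.56), Itgb3 0.32 (0.07 to 0.57) and Itgav 0.05 (-0.12 to 0.23). For Itga5 the difference was -0.34 (-0.71 to 0.03, adjusted p = 0.306), and for Itgb7 -1.36 (-2.76 to 0.05, adjusted p = 0.280), so neither was shown to differ.

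The populations themselves differed in most of these genes. Of the 32 tested, 29 were called between mesenchymal and hematopoietic cells of each genotype, against 73% of all genes in knock-in and 73.5% in wild type. In knock-in cells 14 were higher and 15 lower in mesenchymal cells, against 33.9% and 39.1% of all genes. In wild type cells 16 were higher and 13 lower, against 35.4% and 38% of all genes. Groups did not overlap for 25 of the 32 genes in either genotype, against 51.3% of all genes in knock-in and 51.8% in wild type. Both comparisons involve the same 24 libraries in 1 fit, and the values below are for wild type cells.

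Genes lower in mesenchymal cells included Itgb2, Itgal and Itgax, which encode leukocyte integrin chains, and Fermt3 and Parvg, while the platelet chain gene Itga2b was higher. The log2 fold changes were -7.93 for Itga4, -7.51 for Itgb2, -6.98 for Itgal, -6.97 for Fermt3, -6.42 for Itga6, -6.11 for Itgax and -5.22 for Parvg. Ptk2b (-3.65), Itga8 (-2.80), Itgb7 (-2.33) and Pxn (-2.12) were lower by less, and Itgb5 (-0.61) and Tln1 (-0.29) by little. Adjusted p-values in these 13 genes were at most 0.00246 by edgeR. Itga6 averaged 6.93 ± 2.90 CPM in knock-in and 8.28 ± 3.33 CPM in wild type mesenchymal cells, against 396 ± 134 and 699 ± 72.2 CPM in knock-in and wild type hematopoietic cells (SD, n = 6 each).

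Genes higher in mesenchymal cells included the collagen receptor chains Itga1, Itga10 and Itga11, but not Itga2, and Tln2 and Fermt2, which encode talin 2 and kindlin 2. Itga1 had a log2 fold change of 3.59, Fermt2 3.54, Itga3 3.40, Tln2 3.39, Itga11 3.26, Vcl 3.09 and Itgb8 2.88. Their hematopoietic level can be read beside the estimated stromal share of 10.8% and 10.05% in knock-in and wild type hematopoietic libraries. As a percentage of the mesenchymal mean of the same genotype, Itga11 stood at 10.1% in knock-in and 11.2% in wild type hematopoietic cells, Fermt2 at 8.66% and 8.96%, Tln2 at 8.41% and 10.1%, Itga3 at 7.52% and 9.75% and Vcl at 13.9% and 12%. The part of stromal RNA in these levels was not tested. Smaller differences were found for Itga7 (1.92), Ptk2 (1.62), Itga2b (1.56), Itga5 (1.53), Itga10 (1.28), Itgb3 (1.14), Ilk (0.99), Itgb1 (0.85) and Gsn (0.46). Adjusted p-values in the 16 genes were at most 0.0109 by edgeR.

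Itgb3 changed sides between the genotypes. In knock-in cells it was lower in mesenchymal than in hematopoietic cells, with a log2 fold change of -1.13 (adjusted p = 0.00401, edgeR), and in wild type cells it was higher, with 1.14 (adjusted p = 0.00487). In both genotypes the libraries of the 2 populations overlapped for this gene. The group means were 57.95 ± 10.2 CPM in knock-in mesenchymal, 46.8 ± 10.9 CPM in wild type mesenchymal, 127.5 ± 48.2 CPM in knock-in hematopoietic and 20.9 ± 13.8 CPM in wild type hematopoietic cells (SD, n = 6 each). Itgav was lower in mesenchymal cells in knock-in (-0.73, adjusted p = 1.88e-08, edgeR) and not called in wild type (-0.07, 95% interval -0.23 to 0.10). Itga2 was likewise lower in knock-in (-2.77, adjusted p = 1.54e-06) and not called in wild type (0.83, -0.05 to 1.71).

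Read per kilobase of exon, different chains led in each group. Among alpha chains of knock-in hematopoietic cells Itgav was highest at 96.6 ± 7.51 CPM per kb, followed by Itga5 at 60.1 ± 9.29, Itga6 at 43.9 ± 14.8 and Itga4 at 27.99 ± 2.56. The SDs of Itga5 and Itga6 overlapped. In wild type hematopoietic cells the order was Itga6 at 77.5 ± 7.99, Itgav at 58.8 ± 5.55, Itga4 at 30.9 ± 1.71 and Itga5 at 29.5 ± 2.85, and the last pair lay within their SDs (n = 6 libraries each). Mesenchymal cells had Itga11 first, at 219 ± 38.6 in knock-in and 171 ± 19.9 CPM per kb in wild type, then Itga5 at 136 ± 15.8 and 85.0 ± 16.8, then Itgav at 58.0 ± 2.99 and 56.1 ± 5.52.

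Among beta chains Itgb2, Itgb1 and Itgb5 had 174 ± 27.2, 168 ± 15.2 and 123 ± 23.9 CPM per kb in knock-in hematopoietic cells, with Itgb2 and Itgb1 within their SDs. Wild type hematopoietic cells had 119 ± 9.62, 174 ± 17.3 and 142 ± 17 for the same genes. Itgb3 followed with 21.6 ± 8.17 in knock-in and 3.54 ± 2.34 CPM per kb in wild type. Mesenchymal cells were led by Itgb1, at 365 ± 17.8 in knock-in and 314 ± 22.9 in wild type, and by Itgb5, at 112.2 ± 12.7 and 92.5 ± 5.64 CPM per kb. Of the cytoplasmic genes Gsn and Tln1 led in hematopoietic cells, with 132 ± 12.1 and 80.5 ± 3.40 in knock-in and 105 ± 11.2 and 76.3 ± 2.46 CPM per kb in wild type. Vcl led in mesenchymal cells, with 192 ± 26.9 in knock-in and 192 ± 15.9 CPM per kb in wild type.

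**Figure D4:**
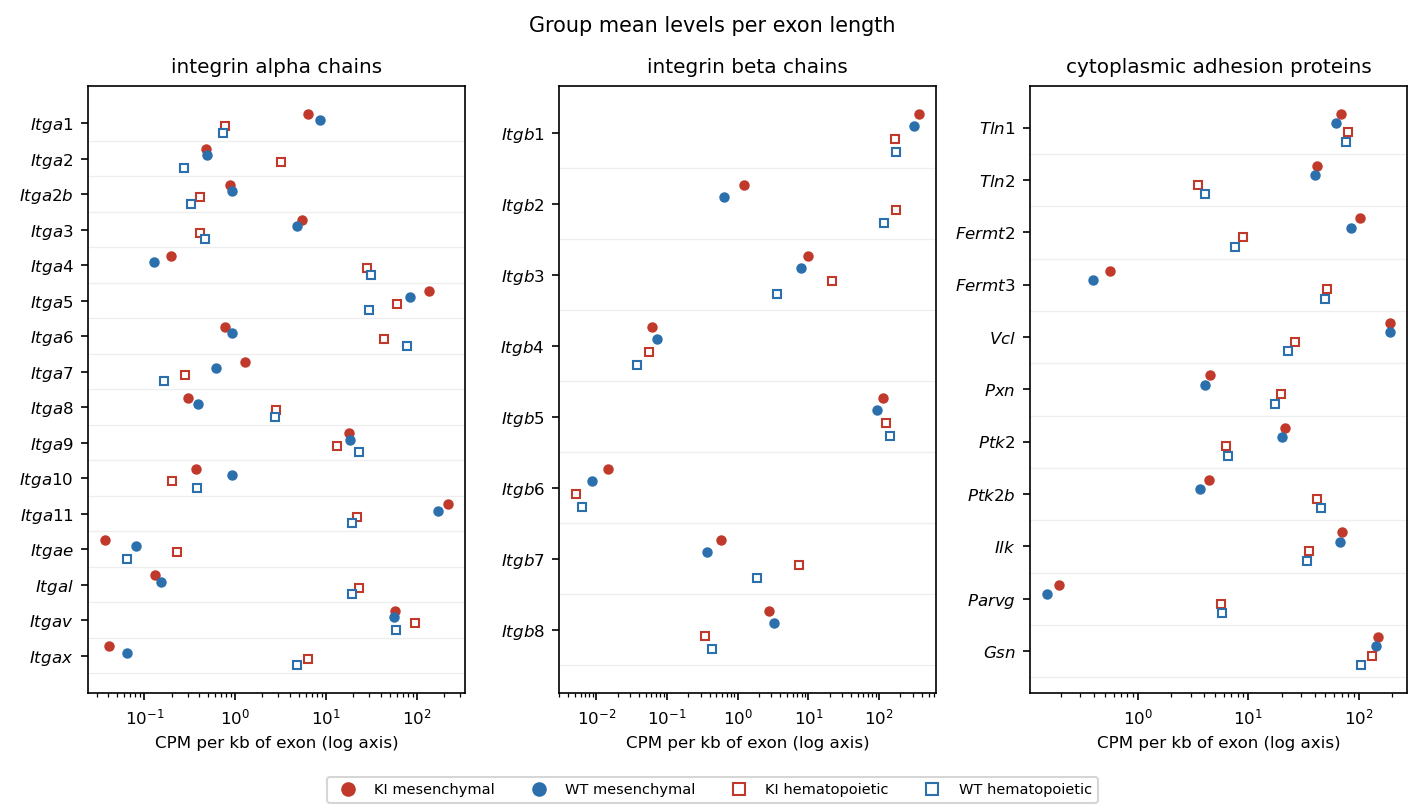
Group mean level per kilobase of exon, on a log axis, of the genes with counts, for alpha chains, beta chains and cytoplasmic proteins (circles, mesenchymal; squares, hematopoietic; red, knock-in; blue, wild type). Circles and squares of Itga4, Itga6, Itgal, Itgb2 and Fermt3 lie far apart, while those of Itgav and Itgb5 lie close.

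The wider podosome machinery was read from 4 further gene lists. They were chosen with earlier results of these data known, so their counts beside the shares of all genes are descriptions only. Of 40 podosome core genes tested in hematopoietic cells 12 rose and 6 fell, against 9.01% and 6.89% of all genes, and the median log2 fold change was -0.05, against -0.0048 for all genes. Src, the kinase that drives podosome turnover, averaged 129 ± 29.9 CPM in knock-in and 18.7 ± 8.61 CPM in wild type cells, a log2 fold change of 2.81 (adjusted p = 1.23e-04, edgeR). Mmp14, a membrane protease, rose by 1.42, Dock5, a Rac activator of osteoclasts, by 1.26 and Myo1e, a podosome myosin, by 1.09 on the log2 scale. Vav3 (-0.83), Pik3r1 (-0.42), Coro1a (-0.30) and Actr3 (-0.21) fell. Groups overlapped for Vav3, Coro1a and Actr3, and neither run alone called them. In mesenchymal cells 4 of 38 rose and 2 fell, against 3.44% and 3.83% of all genes. Among them were Src (0.43), Cd44 (0.73), a hyaluronan receptor, and Vav3 (-0.89). Vav3 was low there, at 4.89 CPM in knock-in and 9.21 CPM in wild type, against 268 and 484 CPM in hematopoietic cells. Its mesenchymal groups overlapped, and neither run alone called it.

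Of 33 integrin activators and adaptors 7 rose and 5 fell in hematopoietic cells, against 9.01% and 6.89% of all genes. Tns1, for tensin 1, had a log2 fold change of 1.15, Actn1, for an actinin that bundles actin, 0.75, Vasp, for an actin elongation factor, 0.70 and Git1 0.69. Dock1 (-0.44), Nedd9 (-0.40), Rap1b (-0.33) and Lpxn (-0.51), a paxillin relative, fell. For each of these falls the groups overlapped, and neither run alone called it. In mesenchymal cells 2 of 33 rose, Flna (0.35) and Zyx (0.36), and 1 fell, Rasgrp2 (-1.87), near the 7.27% of all genes called. Rasgrp2 was low, at 0.367 CPM in knock-in and 1.43 CPM in wild type mesenchymal cells. Groups overlapped for Flna, Zyx and Rasgrp2, and within the runs only Rasgrp2 in run 1 was called. Of 14 integrin-associated membrane proteins 6 rose and 2 fell in hematopoietic cells, against the same shares of all genes, with the tetraspanin Cd82 at 1.13 and the scavenger receptor Cd36 at -0.60. Cd36 had overlapping groups and no call in either run alone. In mesenchymal cells 1 of 13 rose, Plaur (0.48), the urokinase receptor, and 1 fell, the tetraspanin Cd9 (-0.64), against 3.44% and 3.83% of all genes.

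Of 22 genes for ligands and matrix 2 rose and 2 fell in hematopoietic cells, against 15.9% of all genes called, and log2 fold changes ran from -3.44 to 1.16. Edil3, a secreted alpha v ligand, rose by 1.16 and Icam1, a ligand of beta 2 integrins, by 0.40 on the log2 scale, while Icam2 (-0.87) and Npnt (-0.999) fell. For each of these genes the groups overlapped, and neither run alone called it. Icam2, at 2.08 CPM in knock-in and 3.84 CPM in wild type, and Npnt, at 2.95 and 6.09 CPM, were low. In mesenchymal cells 1 of 21 rose, Lama5 (0.66), and 3 fell, against 7.27% of all genes called. Ibsp, for the bone sialoprotein that alpha v and beta 3 bind, averaged 52.4 ± 57.8 CPM in knock-in and 660.0 ± 457 CPM in wild type mesenchymal cells, a log2 fold change of -3.96 (adjusted p = 0.0172, edgeR). Spp1, for osteopontin, averaged 1375 ± 557 CPM in knock-in and 2090 ± 478 CPM in wild type mesenchymal cells, a log2 fold change of -0.63 (adjusted p = 0.0488). For both Ibsp and Spp1 the groups overlapped, and neither gene was called in either run alone. Col4a1 (-0.49), for a basement membrane collagen, also fell. Its groups and those of Lama5 overlapped, and neither run alone called Col4a1 or Lama5.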

How the data were processed

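The authors deposited raw counts, 1 per gene in each library. Total RNA was freed of ribosomal RNA and made into stranded, paired-end libraries, per the labels' protocols. Per the submitters' processing notes, HTSeq 0.9.1, DESeq2 1.20.0 and FastQC 0.11.7 were used with build GRCm38. The sources used here do not give the aligner or the strand setting. Symbols, coordinates and exon lengths came from GENCODE (GRCm38), which matched 54165 of 54232 identifiers.

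Each population's genotype fit used its 12 libraries, and the interaction and population fits all 24, in R 4.3.3 with edgeR 4.0.16 (filterByExpr minimum count 10 and total 15, TMM, robust quasi-likelihood test, Benjamini-Hochberg over all genes at 0.05). Every fit had a run term. The 2 runs, with 3 libraries per group, were read from a prefix of the file names, and the labels do not give them. CPM use TMM factors of the 24-library fit. Stromal and leukocyte RNA shares are medians over markers of 10 CPM or more, relative to the other population. The code was tested on simulated data. Totals of 9875390 to 15826711 counts set the precision of low genes. Replicates differed beyond counting noise (chi-square per degree of freedom 6.73 or more), and none was merged.

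All 36 genes are named. Full values are given for those called in a genotype comparison, and from each further list up to 4 called genes per direction by adjusted p, some of them in the counts alone. Alternatives were other size factors, DESeq2 1.42.0, filters, the run term, each run alone, 1 joint fit, the replicate block, subtraction of or adjustment for the other population's RNA, and each library left out. The members and lists were chosen with earlier results of these data known. Figures were drawn with matplotlib 3.10.9.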

Additional observations from a re-analysis of the deposited data

Results flagged for a closer look

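The knock-in effect differed between the populations for 3 genes by the edgeR interaction test, with differences, mesenchymal minus hematopoietic, of -3.60 for Itga2, -2.27 for Itgb3 and -0.67 for Itgav on the log2 scale. Each was called again without any single library of the 24.

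One library lay far from the other 5 of its group in 8 of 123 groups of values checked with Dixon's criterion, which flags about 1 in 20 by chance. In wild type hematopoietic replicate 3 this was Itga11 at 198.9 CPM, Fermt2 at 85.32 CPM and Itga7 at 3.693 CPM, and in knock-in hematopoietic replicate 3 Tln2 at 130.8 CPM. These are the hematopoietic libraries with the highest estimated stromal RNA share, 22.2% in the knock-in and 19.4% in the wild type one, and the part of that share was not tested. In wild type hematopoietic replicate 6, Itga8 was at 54.88 CPM and Itgal at 345.2 CPM. In knock-in mesenchymal replicate 4, Itga7 was at 20.21 CPM, and in wild type mesenchymal replicate 1, Itga2 was at 5.532 CPM. Itga7 in mesenchymal cells was no longer called without that knock-in replicate 4.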

How the results depend on the processing

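In hematopoietic cells 10 genes were called (8 higher, 2 lower). The count was 6 with run 1 alone, 2 with run 2 alone and 6 without the libraries over 15% stromal RNA. Without a filter on low counts the edgeR adjusted p of Itga6, Itga9 and Pxn was 0.0907, 0.0861 and 0.161, and in 1 fit of all 24 libraries that of Itgb2 and Pxn was 0.0859 and 0.0712. After subtraction of stromal RNA that of Pxn was 0.065. In mesenchymal cells 4 were called. The count was 7 with DESeq2, 2 with no run term, 2 in 1 fit of all 24 libraries, 2 with leukocyte markers as a covariate and 0 in each run alone, where 5 and 3 genes had an unadjusted p under 0.05 in run 1 and run 2, and 1 to 5 when a single library was left out. In 1 fit of all 24 libraries the edgeR adjusted p of Fermt2, Itga7 and Itga10 was 0.547, 0.194 and 0.0665. For the interaction 3 were called. The count was 7 with DESeq2, 0 in run 1 (5 with an unadjusted p under 0.05), 1 in run 2, 7 after subtraction of the other population's RNA, and 3 to 5 when a single library was left out. The subtraction stops counts at 0 and gave Tln2 a difference of 9.48. The population counts of 29 stayed within 1.5 times. No called log2 fold change of these genes changed sign under the alternatives run. Among values not called, the sign turned under at least 1 alternative for 8 hematopoietic, 8 mesenchymal and 9 interaction values. The scaling alternatives moved the median of all genes by less than 0.1. Called genes picked from the 4 further lists lost their call in 138 of 623 values under the alternatives in hematopoietic cells. In mesenchymal cells they lost it in 122 of 343 values.

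Same-numbered knock-in and wild type replicates deviated together in part, with correlations of 0.09 to 0.445 in hematopoietic and -0.039 to 0.336 in mesenchymal cells. For deviations taken within a run they were 0.055 to 0.402 and 0.028 to 0.304. The main fits did not use the numbers as pairs, so they take no account of what same-numbered libraries share. With the replicate block 12 genes were called in hematopoietic cells, while mesenchymal cells had 6 calls and the interaction 3. Best agreement with the own number was seen in 6 of 12 and 5 of 12 libraries. Genes near the detection limit, such as Itgae, Itgb4 and Itgb6, cannot be judged at this depth.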
